A study of Mus musculus with 4 samples.

Results

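The pluripotency factors described here are 10 genes that mark undifferentiated embryonic stem cells and do not belong to the Sox, Klf or Myc families, namely Pou5f1, Nanog, Esrrb, Sall4, Zfp42, Tbx3, Utf1, Lin28a, Tdgf1 and Tcl1. They were read on 4 Affymetrix mouse genome arrays, on which a transcript is reported by 1 or more probe sets. Every probe set whose annotation names exactly 1 of the 10 genes was taken, whatever its value, which gave 20 of the 45037 probe sets on the array, for 10 of the 18193 genes that have a probe set of their own. None of the other probe sets names a member together with another gene. The cells were bronchoalveolar stem cells (BASCs) from lungs of ICR mice aged 4 to 6 weeks. They were sorted as CD31 and CD45 negative and CD34 and Sca-1 positive and first plated on irradiated mouse embryonic fibroblast feeders. The medium held serum and leukaemia inhibitory factor. For established cells the paper names collagen-coated dishes in 1 place and feeders in another. Whether feeders were present for the arrays is thus not settled. The 2 control arrays carry that genotype label alone, and the 2 Myc-depleted arrays come from stable lines made with a lentivirus that expresses a short hairpin RNA against c-Myc and held under puromycin for several generations. The paper calls the array controls wild type, and whether they received a virus or puromycin is not given, so depletion cannot be told apart from infection and selection. Separate cultures are not stated for the arrays within a group, so a p-value here reflects how far these arrays scatter, which may be a technical scatter.

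In embryonic stem cells, Pou5f1 (also called Oct4), Nanog and Esrrb are transcription factors that bind the control regions of their own and of each other's genes and so hold the cell in a self-renewing state. Around this core, Lin28a blocks the maturation of the let-7 microRNAs, Tdgf1 (Cripto) helps Nodal to bind its receptors, and Tcl1 raises the activity of the kinase Akt. Most of these genes are switched off when cells leave the pluripotent state, whereas Tbx3 is also used in the embryo outside it, the lung mesenchyme included.

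Promoter sequence gives the letters that such factors are known to bind. A window from 250 bases before to 50 bases after each annotated start was at hand in RefSeq (mouse GRCm38.p6) for 8 of the 10 genes, in 11 windows, and for neither Sall4 nor Tbx3. The following stretches are shown because they hold letters of the kind that Pou5f1 and its partner Sox2 are known to bind, in the promoters of other members. Capitals mark the sites, both are printed in the direction of the gene, and the site in Nanog lies 75 or 151 bases before its 2 annotated starts and that in Zfp42 lies 186 bases before its start.
Nanog, chr6:122707394-122707447, plus strand: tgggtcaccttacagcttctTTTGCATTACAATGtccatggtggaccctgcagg
Zfp42, chr8:43307168-43307215, minus strand: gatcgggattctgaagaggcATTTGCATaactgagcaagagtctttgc
In Nanog the capitals hold the octamer core TTTGCAT and the Sox element ACAATG with 1 base between them. This arrangement was found on either strand in 2 of all 32851 windows (0.00609%), and both are windows of Nanog that overlap. The pair is known from this promoter, so its presence is background and not a result of these arrays. The full octamer ATTTGCAT, which contains the core, was in 1.74% of all windows and in Zfp42 alone among the members. The core was in 4.63% of all windows and in those of Nanog and Zfp42. The Sox element, which is short, was in 12.6% of all windows and in those of Pou5f1, Nanog, Esrrb and Lin28a. The Esrrb element TCAAGGTCA was in 0.423% of all windows and in 0 of the 11. The E-box CACGTG, to which Myc binds with its partner Max, was in 7.15% of all windows and in 0 of the 11. A match is a stretch of letters and not a measured site, and a missing match says only that these letters are not in these windows.

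The values are on a log2 scale, so a difference of 1 is a 2-fold difference in signal. The arrays were closely scaled to each other, with medians between 5.48 and 5.49 and values from 2.89 to 14.63. A probe set was tested when its mean over the 4 arrays was at or above log2 5.08, the 40th percentile of all probe sets, and 27022 passed. Myc, the gene that was targeted, read 9.21 and 9.69 on the control arrays and 8.35 and 8.50 on the Myc-depleted arrays through its 1 probe set. Both Myc-depleted arrays lay below both control arrays, at 0.492 of the control level (95% interval 0.331 to 0.732), with an adjusted p of 0.363 in limma, a linear model with a moderated variance that was fitted to all tested probe sets with Benjamini-Hochberg adjustment. Of the 4 sort markers, Sca-1 (Ly6a) had no probe set that names it alone and could not be read. Cd34 read 3.85, 3.97, 3.66 and 3.76 on control 1, control 2, Myc-depleted 1 and Myc-depleted 2, which is under the threshold, and so were Pecam1 (CD31) and Ptprc (CD45). The lung epithelial markers Sftpc, Scgb1a1, Nkx2-1, Cdh1 and Sftpa1 were under it as well, while Sftpb and Aqp5 were above it, with means over the 4 arrays of 5.73 and 5.15. Epcam read 6.89 and 7.12 on the control arrays and 7.80 and 7.52 on the Myc-depleted arrays through 1447899_x_at, while its other probe set was under the threshold. All 7 listed fibroblast genes were tested, and Col1a1, Col1a2, Col3a1 and Vim had group means between 12.6 and 14.5. Thy1 was lower by -1.26 and Pdgfra higher by 1.23 in Myc-depleted cells, with adjusted p of 0.263 and 0.282 in limma. Thy1 read 4.68 and 4.75 on the Myc-depleted arrays, under the threshold, and was tested only because its control values of 6.02 and 5.92 raised its mean. Dcn read 5.40 and 5.36 on the control arrays and 6.02 and 6.08 on the Myc-depleted arrays through 1449368_at. The difference was 0.67 (adjusted p = 0.332 in limma), and the other probe set of Dcn was under the threshold. The part of such cells in the values of the members was not tested. Feeder cells and BASCs cannot be told apart in these values, nor can fewer cells of a type from less RNA per cell.

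Of the 20 probe sets of the pluripotency factors, 15 were under the threshold and 5 were at or above it. For 7 of the 10 genes, with 9 probe sets between them, no probe set reached it. The genes that did were Tbx3, with 3 probe sets, and Esrrb and Utf1, with 1 each. To give the threshold a scale, 10 of 44 probe sets of olfactory receptor genes, which cells outside the nose rarely use, were also at or above it (22.7%), with means from 3.61 to 5.59 and a median of 4.64. The 15 low probe sets of the members had means from 3.69 to 4.96, within the olfactory range, while the 5 others lay above its upper end. The probe sets nearest to the threshold were Sall4 1424152_at under it, with a mean of 4.96, and Tbx3 1445757_at above it, with a mean of 5.90. A value under the threshold does not show that a gene is silent. The sources name both Robust Multichip Average and GCRMA for the deposited values, and these related procedures treat low signals differently.

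**Figure D1:**
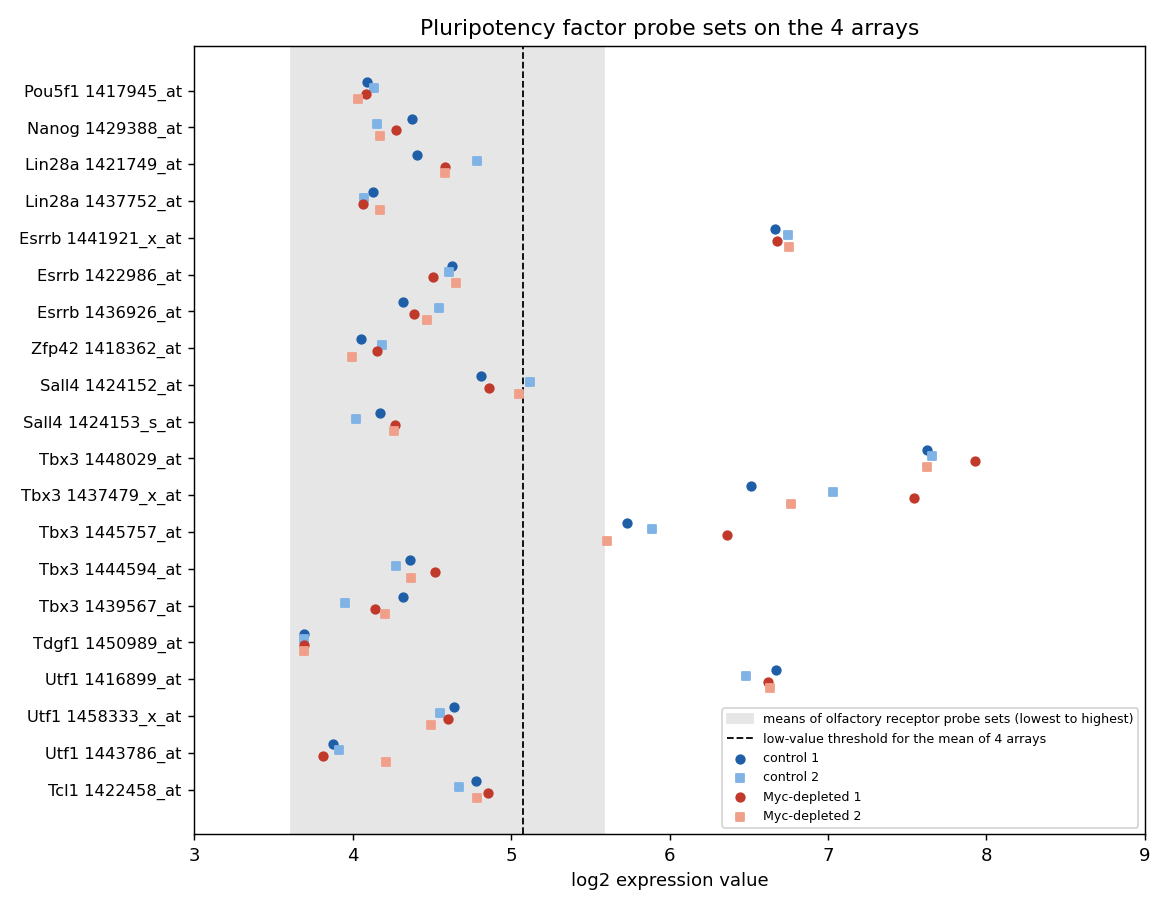
Log2 expression value (horizontal axis) of each of the 20 probe sets of the pluripotency factors (rows), with 1 point per array, blue for control and red for Myc-depleted. The dashed line is the threshold of log2 5.08 on the mean of the 4 arrays and the grey band runs from the lowest to the highest mean of the olfactory receptor probe sets (3.61 to 5.59). Tbx3, Esrrb and Utf1 have points to the right of the band and all other genes lie within it.

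Pou5f1, Nanog and Zfp42 were low on every array. Pou5f1, the POU-domain factor without which the inner cell mass does not stay pluripotent, read 4.09 and 4.13 on the control arrays and 4.09 and 4.03 on the Myc-depleted arrays. The groups did not overlap by a narrow margin, with Myc-depleted lower by 0.05, and all 4 values spanned 0.10. Nanog, a homeodomain factor, read 4.38 and 4.16 on the control arrays and 4.27 and 4.17 on the Myc-depleted arrays, so the Myc-depleted values lay between the controls. Zfp42 (Rex1), a zinc finger protein used as a marker of undifferentiated cells, read 4.05 and 4.18 on the control arrays and 4.15 and 3.99 on the Myc-depleted arrays. These groups overlapped too, with a difference of -0.04 for each of Nanog and Zfp42.

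Sall4, a zinc finger factor that works with Pou5f1, has a pair of probe sets, and neither reached the threshold. Probe set 1424152_at read 4.81 and 5.12 on the control arrays and 4.86 and 5.05 on the Myc-depleted arrays, a difference of -0.01. Control 2 alone passed log2 5.08 there. Probe set 1424153_s_at read 4.17 and 4.02 on the control arrays and 4.27 and 4.26 on the Myc-depleted arrays, higher by 0.17 with no overlap. This was the largest difference among the 15 low probe sets, and in a limma fit of all 45037 probe sets without the threshold it had the smallest p of any member, with an adjusted p of 0.789.

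The members Lin28a, Tdgf1 and Tcl1 were low as well. Lin28a, the RNA-binding protein that blocks let-7, read 4.40 and 4.79 on the control arrays and 4.58 on each Myc-depleted array through 1421749_at, and 4.13 and 4.07 against 4.07 and 4.17 through 1437752_at. Its groups overlapped in both probe sets. Tdgf1, a cell-surface coreceptor for Nodal, read 3.69 on all 4 arrays, and its range of 0.00151 was the smallest of all 45037 probe sets. Tcl1, a cofactor of Akt, read 4.78 and 4.67 on the control arrays and 4.86 and 4.79 on the Myc-depleted arrays, higher by 0.10 with no overlap. Over the 15 low probe sets, the range across the 4 arrays had a median of 0.219 and ran from 0.00151 to 0.402, beside a median of 0.247 for all probe sets under the threshold. The differences between groups in these 15 ran from -0.05 to 0.17.

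Esrrb and Utf1 each reached the threshold through 1 probe set of 3. Esrrb, an orphan nuclear receptor that can stand in for Nanog, read 6.67 and 6.75 on the control arrays and 6.68 and 6.75 on the Myc-depleted arrays through 1441921_x_at. Each group thus held 1 lower and 1 higher array at similar levels, and the difference was 0.01 (SE 0.12, 95% interval -0.31 to 0.33, adjusted p = 0.99 in limma). The suffix _x_at marks a probe set with probes that may also match other transcripts. The other probe sets of Esrrb were under the threshold, with values from 4.51 to 4.65 for 1422986_at and from 4.32 to 4.54 for 1436926_at, and differences of -0.04 and -0.00.

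Utf1, a chromatin-bound protein of undifferentiated cells, read 6.67 and 6.49 on the control arrays and 6.62 and 6.64 on the Myc-depleted arrays through 1416899_at. Both Myc-depleted values lay between the controls, with a difference of 0.05 (SE 0.13, 95% interval -0.30 to 0.40, adjusted p = 0.946 in limma). The other Utf1 probe sets stayed under the threshold, from 4.49 to 4.64 for 1458333_x_at and from 3.81 to 4.21 for 1443786_at, with differences of -0.05 and 0.12. For both genes, then, 1 probe set was above the threshold and 2 were not, and these arrays hold nothing that shows which of them reads the gene.

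Tbx3, a T-box transcription factor, was the member with the most probe sets above the threshold, 3 of 5. Probe set 1448029_at read 7.63 and 7.66 on the control arrays and 7.93 and 7.62 on the Myc-depleted arrays. Probe set 1437479_x_at read 6.51 and 7.03 on the control arrays and 7.55 and 6.77 on the Myc-depleted arrays. Probe set 1445757_at read 5.73 and 5.89 on the control arrays and 6.37 and 5.61 on the Myc-depleted arrays. In all 3 the highest value was on Myc-depleted 1 and the next on control 2, and the groups overlapped. The differences were 0.13 (SE 0.15, 95% interval -0.29 to 0.56), 0.39 (SE 0.35, 95% interval -0.58 to 1.35) and 0.18 (SE 0.29, 95% interval -0.64 to 0.99), with adjusted p of 0.849, 0.787 and 0.908 in limma. The second of these, 1.31-fold, was the largest difference of any member, and its interval runs from a fall to a rise of over 2-fold. The low pair of Tbx3 probe sets read 4.36, 4.27, 4.52 and 4.37 (1444594_at) and 4.32, 3.95, 4.14 and 4.20 (1439567_at) in the order control 1, control 2, Myc-depleted 1 and Myc-depleted 2. The first of this pair was higher by 0.12 with no overlap and the second differed by 0.04 with overlap.

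The same pair of arrays, Myc-depleted 1 and control 2, stood apart in the control probe sets. For the poly-A RNAs that are added to a sample before labelling, the 3′ probe set minus the 5′ probe set of the same RNA grows when labelling does not reach the 5′ end. Its mean over 4 such RNAs was 1.62 on control 1, 3.01 on control 2, 3.67 on Myc-depleted 1 and 1.50 on Myc-depleted 2. Actb gave the same order of the pairs, with 0.60, 1.36, 1.95 and 0.69. Each pair holds 1 array of each group. Between the arrays with the low values, control 1 and Myc-depleted 2, the Tbx3 differences were -0.00 for 1448029_at, 0.26 for 1437479_x_at and -0.12 for 1445757_at. Between the arrays with the high values, control 2 and Myc-depleted 1, they were 0.27, 0.51 and 0.48. Without Myc-depleted 1, the differences were -0.02, -0.0023 and -0.20, so none of these 3 probe sets was higher in the Myc-depleted group without that array. The part of the labelling difference in the Tbx3 values was not tested.

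**Figure D2:**
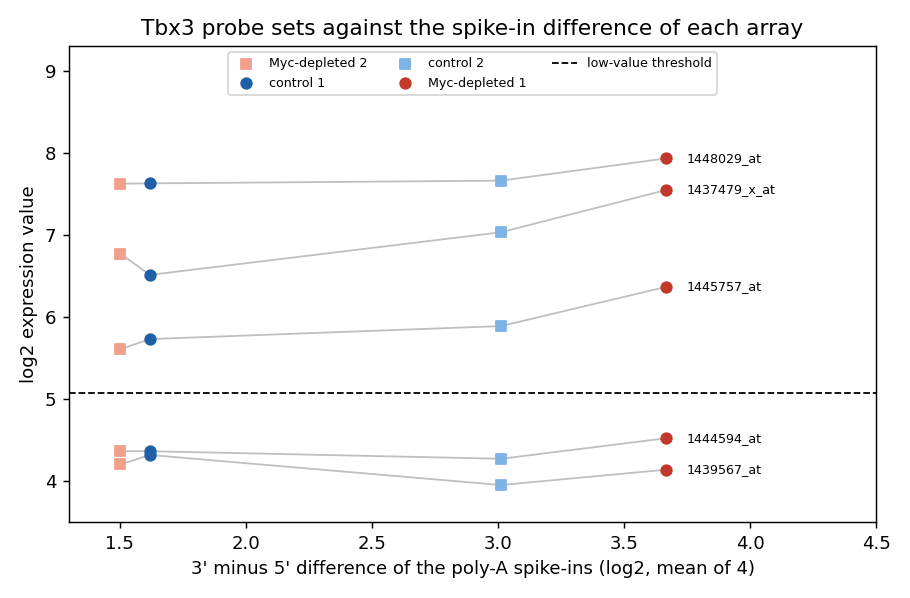
Log2 expression value of the 5 Tbx3 probe sets (vertical axis, grey lines join the arrays of 1 probe set) against the 3′ probe set minus the 5′ probe set on each array, as a mean over 4 spiked poly-A RNAs (horizontal axis, log2). The 3 probe sets above the dashed threshold of log2 5.08 are highest on Myc-depleted 1 (3.67 on the horizontal axis) and next highest on control 2 (3.01).

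Between Myc-depleted and control cells, no probe set of a pluripotency factor passed a threshold for a difference. After Benjamini-Hochberg adjustment in limma, 0 of the 27022 tested probe sets were called (0%), with a smallest adjusted p of 0.110, so the absence of a call is not particular to the members. At an unadjusted p under 0.05, 2726 of the tested probe sets (10.1%) and 0 of the 5 members passed. At a fold over 2 together with an unadjusted p under 0.05, 316 tested probe sets (1.17%) and 0 of the 5 members passed. In the fit without the threshold, 0 of the 20 members had an unadjusted p under 0.05, beside 8.49% of all probe sets. Groups that did not overlap were found for 4 of the 20 members, beside 17251 of all 45037 probe sets (38.3%). These 4 were Pou5f1, which was lower in Myc-depleted cells, and Tcl1, Sall4 1424153_s_at and Tbx3 1444594_at, which were higher, and all 4 were under the threshold.

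Across all 20 probe sets, 12 differences were above 0 and 8 were below it. Their median was 0.02, beside 0.01 for all probe sets, of which 52% were above 0. The differences ran from -0.05 to 0.39. Intervals bound what these arrays could have shown, and for 19 of the 20 both ends lay within 2-fold, the exception being Tbx3 1437479_x_at. They rest on the scatter of these arrays, which may be technical, and so do not bound a difference between separate cultures. For a probe set under the threshold such an interval bounds the difference in signal, and background light in the signal makes that smaller than any difference in RNA. The highest of the 4 arrays was control 1 for 4 probe sets, control 2 for 5, Myc-depleted 1 for 6 and Myc-depleted 2 for 5.

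**Figure D3:**
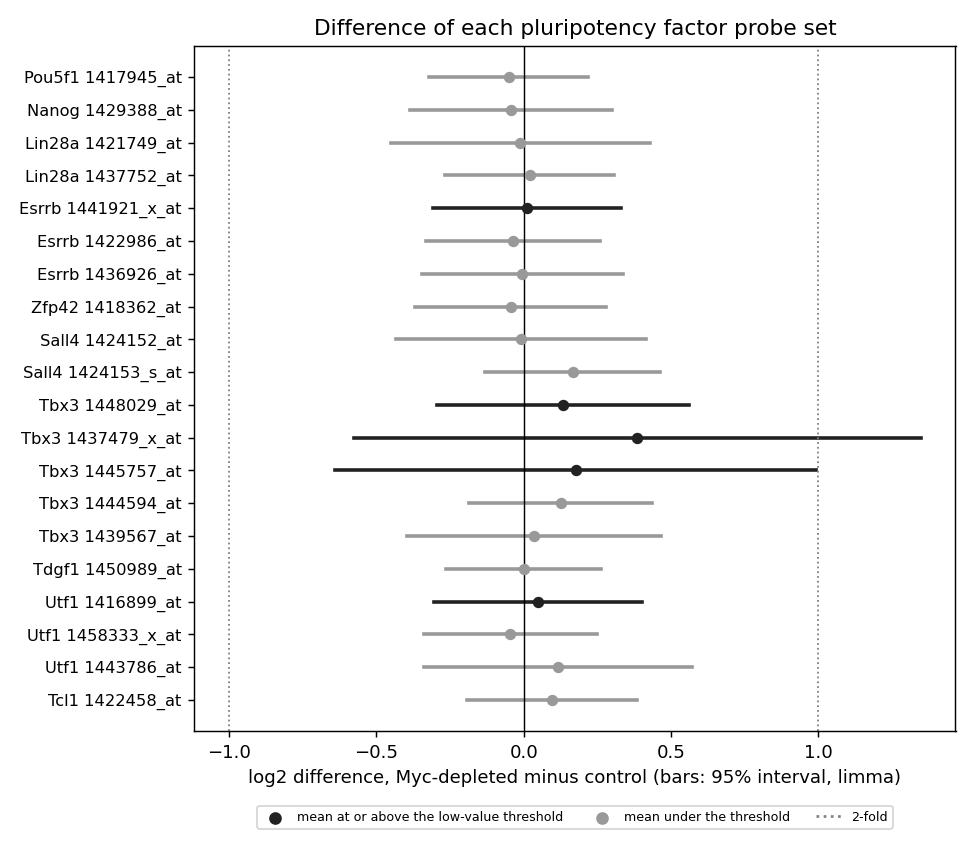
Log2 difference, Myc-depleted minus control (horizontal axis), of each probe set of the pluripotency factors (rows), with the 95% interval of limma as a bar. Black rows were tested with the threshold and grey rows come from the fit without it, and dotted lines mark a 2-fold difference. Every interval includes 0, and the bar of Tbx3 1437479_x_at alone reaches beyond a dotted line.

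The genes whose values ran most like those of the members were found by the root mean square difference between log2 values centred on each probe set's own mean, over the 4 arrays and among 12589 genes with 1 tested probe set each. For Tbx3 1448029_at these were Obsl1 (0.0125), Scamp3 (0.0134) and Parn (0.0154). All were highest on Myc-depleted 1, as Tbx3 was, which follows from how they were chosen. For Esrrb they were Grhl2 (0.00298), Mroh3 (0.00899) and Wasf2 (0.01), and for Utf1 they were Pigq (0.00509), Cep41 (0.00566) and Acyp1 (0.00648). These are descriptions over 4 arrays, with no test.

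The other genes of the embryonic stem cell state were taken from a list of 27, of which 26 had a probe set of their own and 10 were tested. Among the 16 under the threshold were Dppa2, Dppa3, Dppa4, Tfcp2l1 and Prdm14. Of the 10 tested, 4 lay higher after Myc depletion and 6 lay lower, 3 did not overlap between groups, and 0 had an unadjusted p under 0.05, with a median difference of -0.02 beside 0.02 for all 12589 genes. Over all those genes, 47.5% did not overlap and 12.2% had an unadjusted p under 0.05. Dnmt3l, the cofactor of the de novo DNA methyltransferases, read 5.57 and 5.52 on the control arrays and 5.76 and 5.84 on the Myc-depleted arrays, a difference of 0.25 (adjusted p = 0.565 in limma). Dnmt3b, 1 of those methyltransferases, differed by 0.22, Nodal by 0.18 and the zinc finger gene Zfp296 by -0.15. Their means over the 4 arrays were 5.81, 5.64 and 5.75, not far above the upper end of the olfactory range (5.59). The other probe sets of Dnmt3b and Nodal were under the threshold and differed by 0.02 and -0.02. Of the 10 tested genes Jarid2 had the highest mean, at 7.30, and Dnmt3b the next.

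A second list held 29 genes that the study itself had measured by real-time PCR as candidate factors of stemness, 25 of which were tested here. The list is a part of that screen, which also covered Pou5f1 (Oct4), Nanog and Esrrb, described above as members. Of the 27 listed genes with a probe set of their own, all but 2 were above the threshold. Since the list leaves out the members that were in the screen, this count does not compare the screen with the members. In Myc-depleted cells 10 lay higher and 15 lay lower, 11 did not overlap, and 2 had an unadjusted p under 0.05, both lower, with a median of -0.06. They were Mybbp1a, a nucleolar protein that binds Myb, with 11.33 and 11.44 on the control arrays and 11.01 and 11.03 on the Myc-depleted arrays (-0.36, adjusted p = 0.456 in limma), and Smarcc1, a subunit of the BAF remodelling complex (-0.34, adjusted p = 0.489 in limma). The second tested probe set of Mybbp1a differed by -0.62 and those of Smarcc1 by -0.50 and 0.00, so 1 probe set of Smarcc1 did not share the direction. Nacc2, a BTB-domain repressor, differed by 0.34, and its other tested probe sets by 0.37, -0.02 and -0.26, so they did not share a direction. Smarcad1, a chromatin remodeller, differed by -0.34 and, through its second probe set, by -0.30.

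Lin28a acts through let-7, and let-7 acts on a set of growth-related messages. Its relative Lin28b was under the threshold, with 4.84, 4.97, 4.79 and 4.76 in the order control 1, control 2, Myc-depleted 1 and Myc-depleted 2. Of the 14 genes listed for this axis 10 were tested, of which 4 were higher and 6 lower, 4 did not overlap, and 1 in each direction had an unadjusted p under 0.05, with a median of -0.06. The higher gene was Igf2bp1, a messenger RNA-binding protein and a let-7 target, with 6.36 and 6.396 on the control arrays and 7.07 and 7.14 on the Myc-depleted arrays. Its other 3 tested probe sets also read higher in Myc-depleted cells. Of these, 1418761_at read 5.31 and 5.10 on the control arrays and 6.21 and 6.55 on the Myc-depleted arrays (1.17, adjusted p = 0.315 in limma). Probe set 1455223_at read 4.46 and 4.59 on the control arrays, under the threshold, and 5.65 and 5.88 on the Myc-depleted arrays, and it was tested only because these raised its mean. The lower gene was Hmga2, a chromatin protein and also a let-7 target, with 11.5 and 11.6 on the control arrays and 10.8 and 11.2 on the Myc-depleted arrays (-0.52, adjusted p = 0.462 in limma), and all 4 of its tested probe sets were lower, by -0.43 to -0.97. These 2 targets of let-7 thus had differences of opposite sign. Tut4, which tags let-7 precursors for decay, and Dis3l2, the nuclease that removes them, differed by -0.35 and -0.31 with no overlap, while the other tested probe sets of Tut4 differed by -0.14 and 0.10.

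Tdgf1 was under the threshold, while most genes listed for the pathway in which it acts reached it, several of them narrowly. The highest means of Lefty1, Acvr2b and Cfc1 over the 4 arrays lay within the olfactory range, which ended at 5.59. Those of Gdf3 (5.61) and Nodal (5.64) lay just above that end, and the other probe sets of Gdf3 and Nodal were under the threshold. Of the 18 genes listed for Nodal signalling 14 were tested, 8 higher and 6 lower, 6 without overlap and 1 with an unadjusted p under 0.05, with a median of 0.11. That gene was Acvr1b, the type I receptor that Nodal shares with activin, with 8.004 and 7.768 on the control arrays and 8.92 and 8.52 on the Myc-depleted arrays. The difference was 0.83 (adjusted p = 0.387 in limma), and the other tested probe set of Acvr1b differed by 0.09. Smad2, which the receptor phosphorylates, differed by -0.27 through 1420634_a_at and by 0.36 through 1442062_at, so its probe sets had opposite signs. Around the ligand, Pcsk6, a protease that can cleave Nodal's precursor, differed by 0.40 and Hspa5, a chaperone that binds Tdgf1, by -0.28. Lefty2 and the receptor Acvr1c were under the threshold.

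The medium held leukaemia inhibitory factor, the cytokine that keeps mouse embryonic stem cells undifferentiated through Stat3. Lif itself and all 3 probe sets of its receptor Lifr were under the threshold, the latter with means from 3.90 to 4.89, while the shared receptor chain Il6st (gp130) was well above it. Of 13 listed genes 11 were tested, 9 higher and 2 lower after Myc depletion, 4 of the higher without overlap and 2 with an unadjusted p under 0.05, with a median of 0.20. Of all 12589 genes, 6803 lay higher, 47.5% did not overlap and 12.2% had an unadjusted p under 0.05 in limma. Whether the list differs from all genes was not tested. Il6st read 11.3 and 11.5 on the control arrays and 12.2 and 11.8 on the Myc-depleted arrays (0.60, adjusted p = 0.476 in limma). A second probe set, 1437303_at, differed by 0.61, while the other 2 differed by 0.11 and 0.19. Of these, 1421239_at read 8.13 and 5.64 on the control arrays and 5.64 and 8.50 on the Myc-depleted arrays, low on the 2 arrays with the large 3′ minus 5′ difference. Tyk2, a Janus kinase, differed by 0.35 (adjusted p = 0.489 in limma), Stat3 by 0.34 and the phosphatase Ptpn11 (Shp2) by 0.18, each without overlap. The other tested probe sets of Ptpn11 differed by -0.46 and 0.10, so that gene has no single direction here.

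Tcl1 binds Akt, and all 10 genes with a probe set of their own in the list of its relatives and of the Akt pathway were tested. In Myc-depleted cells 7 lay higher, 3 lay lower, 2 did not overlap and 1 had an unadjusted p under 0.05, with a median of 0.04. This was Foxo3, a factor that Akt keeps out of the nucleus, with 8.60 and 8.98 on the control arrays and 9.42 and 9.21 on the Myc-depleted arrays (0.52, adjusted p = 0.494 in limma), and its second tested probe set differed by 0.49. Foxo1, its relative, differed by 0.21, while Akt2 differed by 0.10 and Pik3ca, the catalytic subunit of the kinase upstream of Akt, by -0.11. Each of these 3 genes also had a tested probe set of the opposite sign, at -0.08, -0.04 and 0.01.

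Tbx3 belongs to the T-box family, of which 13 other genes on the list had a probe set of their own and 6 were tested. Tbx2 and Tbx4 were among those that were under the threshold. Tbx5 differed by 0.20, Tbx18 by 0.22, Tbx19 by 0.08 and Mga, which also binds Max, by -0.19, with -0.01 for the second probe set of Tbx18 and -0.49 and -0.27 for the other tested ones of Mga. In this family 3 genes lay higher and 3 lay lower, with 1 that did not overlap and 0 with an unadjusted p under 0.05. Among the nearest relatives of all members, 9 of 18 with a probe set of their own were tested, 6 higher and 3 lower, with 4 that did not overlap and 0 with an unadjusted p under 0.05. These included Sall2 (0.35) and Tbx5 (0.20), which were higher without overlap, as was Pou3f2 (0.20), and the Esrrb relative Esrra (-0.14), which was lower without overlap but differed by 0.12 through its second tested probe set. No gene of any of these lists had an adjusted p under 0.05 in limma, as was the case for all probe sets.

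**Figure D4:**
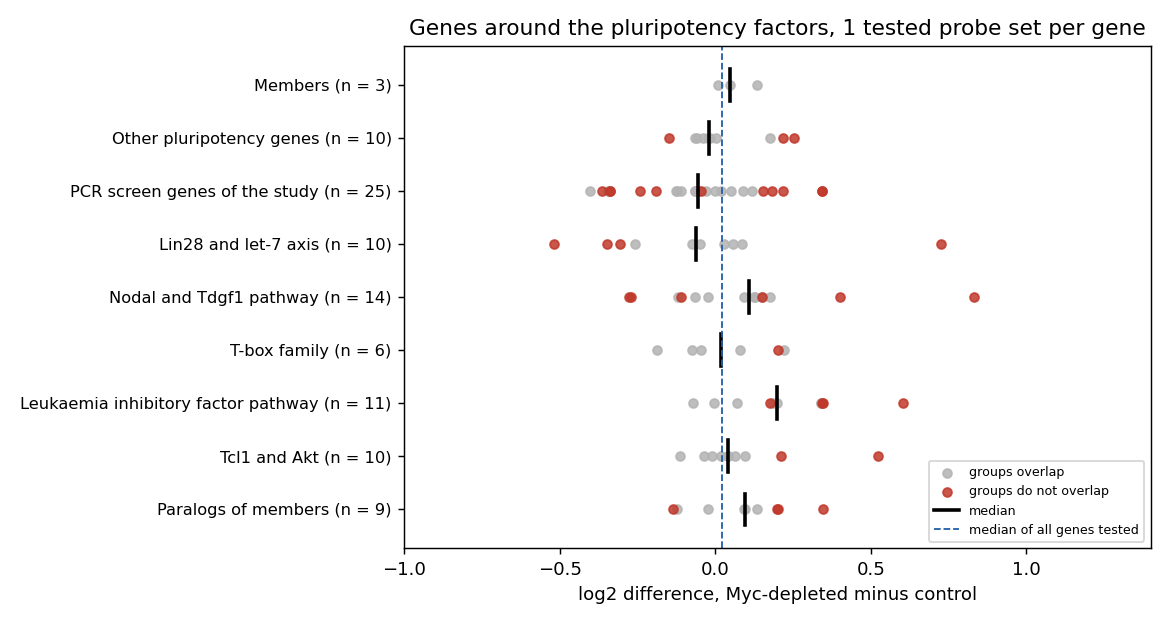
Log2 difference, Myc-depleted minus control (horizontal axis), of the tested members and of the tested genes of each list around them (rows, n is the number of genes, 1 probe set each). Red points are genes whose groups did not overlap, the black bar is the median of the list and the dashed line the median of all 12589 genes (0.02). The 3 members lie between 0.01 and 0.13, inside the spread of every list.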

How the data were processed

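RNA for the 4 arrays was labelled with biotin and hybridised in a single colour. The authors normalized the scanner data in Partek 6.4 and deposited log2 values. Their methods name Robust Multichip Average, the submitters' processing notes name GCRMA, and which made the values was not settled. The table held 45101 probe sets, and 64 control probe sets were used only for the 3′ minus 5′ differences. Probe sets with a mean under the 40th percentile (log2 5.08) were left untested, leaving 27022. In the platform annotation 34945 probe sets had 1 gene symbol, 932 several and 9160 none. Differences were fitted with limma 3.58.1 in R 4.3.3 on all 4 arrays with no covariate (2 residual degrees of freedom, prior 2.02), after the code had been tested on simulated data. The number of arrays limits the precision. Lists were summarised with 1 probe set per gene, the tested one with the highest mean, and up to 4 genes with the smallest unadjusted p were named. Genes named only as under the threshold were chosen after their values were seen. A tested probe set whose sign opposes that of the one named is also given. The members, the lists and the motifs were chosen with earlier results of these data known. Alternatives were no filter, a stricter filter at the 60th percentile (log2 6.16), quantile normalization, a floor at the threshold, a mean-variance trend, the methods' ANOVA, the replicate number as a block, the mean of all probe sets of a gene and each array left out. The pairs of arrays by spike-in difference and a crossed pairing were added after seeing the data. The replicate numbers were not shown to pair the arrays.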

Additional observations from a re-analysis of the deposited data

How the results depend on the processing

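With 2 arrays in each group, 1 array could decide a sign or a count. The 0 probe sets called at an adjusted p under 0.05 in limma stayed 0 under the filters, normalizations, variance models, left-out arrays, the methods' ANOVA and the replicate block. The same numbers deviated in opposite directions (r = -0.766 over the tested probe sets), and with the numbers crossed, an alternative chosen after seeing the data, 21 were called, 0 of them members. The 316 probe sets over 2-fold with an unadjusted p under 0.05 became 306 with the replicate block, 207 with the methods' ANOVA, and 290 to 830 when 1 array was left out, with 566 without Myc-depleted 1 and 830 without Myc-depleted 2. Myc kept its sign, from -1.26 to -0.79 with 1 array left out, and at -1.02 its unadjusted p was 0.0544 in the methods' ANOVA. The 4 members without overlap became 2 after quantile normalization, 0 with the floor, and 10 to 14 when 1 array was left out, since 3 arrays overlap less often. The median difference of the members, 0.02, became 0 with the floor, 0.0026 as a mean of all probe sets per gene, 0.0055 between the arrays of low and 0.026 between those of high spike-in difference, and 0.0046 to 0.058 with 1 array left out. Esrrb 1441921_x_at ran from -0.031 (without control 1, with -0.027 without Myc-depleted 2) to 0.050, and Utf1 1416899_at from -0.045 (without control 2) to 0.14. Without Myc-depleted 1, Tbx3 1448029_at came to -0.020, 1437479_x_at to -0.0023 and 1445757_at to -0.20, and the highest values, without Myc-depleted 2, were 0.29, 0.77 and 0.56. The last had an unadjusted p of 0.0322 in limma, as 1437479_x_at had 0.0302 with the crossed pairing. The smallest adjusted p of a member ran from 0.342 to 1 over the settings other than the crossed pairing and was 0.194 with it. Low values are where background limits the arrays most, and 15 of the 20 probe sets lie there.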

Other observations

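Of genes of the 2-cell embryo, which some embryonic stem cells switch on for a time, 8 had a probe set of their own and 3 were tested. Usp17la, a deubiquitinase of that stage, read 8.09 on control 1 against 4.49 on control 2 and 4.34 and 4.66 on the Myc-depleted arrays. It was tested only because control 1 raised its mean over the threshold. Zfp352, a zinc finger gene of that stage, read 6.29 on control 1 against 5.28 on control 2 and 5.03 and 5.25 on the Myc-depleted arrays. The third, Sp110, read 5.26 and 5.20 on the control arrays and 5.14 and 5.35 on the Myc-depleted arrays, highest on Myc-depleted 2. Of those not tested, Tcstv1 read 6.98 on control 1 against 4.19 on control 2 and 4.10 and 4.05 on the Myc-depleted arrays. Tcstv3 was also highest on control 1, at 4.59, while Duxf3 and Tdpoz1, for example, were not. Among the 20 probe sets of the pluripotency factors, 4 were highest on control 1, the largest of them at 6.67 for Utf1 1416899_at, where Myc-depleted 2 read 6.64.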
